A study of Mus musculus with 10 samples.

Results

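The cytosolic ribosomal protein genes were taken as the genes whose symbol starts with Rpl or Rps followed by a digit, together with Rpsa, Rplp0 and Rplp2, leaving out the S6 kinase genes named Rps6k. Only probe sets that the array annotation assigns to a single gene were used, with the brightest probe set standing for each gene. This gave 51 members of 18193 measured genes, 26 with a large subunit name (Rpl) and 25 with a small subunit name (Rps). Of the 51, 43 encode core subunits (22 large, 21 small) and 6 are paralogs of a core gene (Rpl22l1, Rpl39l, Rpl3l, Rpl7l1, Rps27l and Rps4l). The other two are Rps15a-ps6, a pseudogene, and Rps19bp1, which encodes a binding partner of a subunit and no subunit. Many ribosomal protein genes have near-identical pseudogene copies, and 27 further symbols without a pseudogene mark were named only on probe sets shared with other genes. Rplp1, Rpl3, Rpl5 and Rpl36al are among these, so they are not members.

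The RNA came from CD4+CD25+ T cells, in which regulatory T cells (Treg cells) are found, taken with an isolation kit from combined lymph nodes of BALB/c mice aged 17 to 19 days and not cultured. There were 4 arrays of wild type mice (WT), 3 of mice heterozygous for SHP-1 knockout (he) and 3 of mice homozygous for it, which have the motheaten phenotype (me). SHP-1 is the tyrosine phosphatase encoded by Ptpn6, and the labels name no cell type to which the knockout is limited, so the other cells of the mice carried it too. Beyond the words biological replicate the labels do not say whether each array is a separate animal, so the p-values measure the spread between these arrays, which may be partly technical.

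Each ribosome is built from a large and a small subunit, and each subunit from ribosomal RNA and a set of small basic proteins that are made in near-equal numbers. In activated T cells ribosome production rises with growth, under control of the mTORC1 kinase and of Myc. Most mRNAs for ribosomal proteins begin with a run of pyrimidines (C and T in the gene, the terminal oligopyrimidine or TOP tract), through which mTORC1 and the RNA-binding protein Larp1 set how much of the message is translated. Array intensity reads the level of the message only and not its translation.

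Start sites of members described below are shown because the TOP tract lies there. Each line holds 15 bases before and 15 bases from the annotated start on, from RefSeq for GRCm38.p6, 5′ to 3′ on the gene's strand. Capitals mark the longest run that begins with C and goes on with at least 4 further C or T.
Rpl14, chr9:120571502-120571531, plus strand: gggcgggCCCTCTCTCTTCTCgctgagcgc
Rpl27a, chr7:109519180-109519209, plus strand: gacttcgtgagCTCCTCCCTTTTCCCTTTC
Rpl12, chr2:32961697-32961726, plus strand: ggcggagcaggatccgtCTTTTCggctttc
Rps6, chr4:86857353-86857382, minus strand: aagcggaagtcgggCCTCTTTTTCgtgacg
Rps27l, chr9:66946071-66946100, plus strand: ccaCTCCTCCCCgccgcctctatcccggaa
Rpl3l, chr17:24727811-24727840, plus strand: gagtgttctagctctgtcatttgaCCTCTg
Rps15, chr10:80292416-80292445, plus strand: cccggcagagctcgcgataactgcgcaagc
Rpl7l1, chr17:46782642-46782671, minus strand: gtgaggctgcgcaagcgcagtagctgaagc
Rpl14, Rpl27a and Rps6 have long tracts over their start, while the windows of Rps15 and Rpl7l1 hold no run of this kind. Rps27l and Rpl3l each have a second annotated start site, whose windows hold none either. RefSeq promoters were matched for 44 of the 51 members, 52 promoters in all. Such a run lay in the window of 30 of the 52 promoters (57.7%), against 36.4% of all 32851 promoters. It was found in 15 of 23 promoters of core large subunit genes and 11 of 21 of core small subunit genes. On the opposite strand the share was 25% for the members and 40.8% for all promoters. The letters CCGGAAG, searched on both strands over the whole promoter of 300 bases, were in 40.4% of the members' promoters and 8.86% of all promoters. The letters TATAAA, searched in the same way, were in 11.5% and 13.6%.

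Ptpn6 log2 levels separated the genotypes without overlap, at 9.55 to 9.83 in WT, 9.30 to 9.54 in he and 8.84 to 9.08 in me. Values are log2(intensity + 32) after quantile normalisation between arrays, a method that gives every array the same set of values. The arrays fell into a pair of sets by correlation over the probe sets of no member, called A (WT 1, WT 2, he 1, me 1 and me 3) and B (WT 3, WT 4, he 2, he 3 and me 2). Pearson r over probe sets, which are not independent, was 0.970 to 0.996 for arrays of 1 set and 0.854 to 0.944 for arrays of different sets. The sets were made from these data and the labels give no batch, and me 3 correlated more with set B (mean r 0.927) than the other arrays of set A did (0.877 to 0.879). Xist was low (7.20 to 7.54) and the Y-linked Eif2s3y high (9.16 to 10.28) on WT 2, WT 4, me 1 and me 2, and the reverse held on the other 6 arrays, which include all of he. The Treg transcription factor gene Foxp3 (10.60 to 11.58) and the T cell receptor chain gene Cd3e (9.72 to 10.24) were well above the median of all genes on every array. Of the 5 T cell markers measured 1 had a mean level below that median (percentile 1.6), and of the 6 Treg markers 0 did.

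The members were among the brightest signals of these cells. Of the 51, 36 lay in the top 5% of genes and 27 in the top 1%, and 20 of the 60 genes at or above a log2 level of 13 were members. Their median level was 12.33, against 7.90 over all genes. A probe set's signal also depends on its probes, so these levels rank signals and not amounts of message. The brightest in each subunit were Rps29, a zinc-binding protein of the small subunit, at 14.15 ± 0.09 (SD over the 10 arrays), and Rpl13a, a large subunit protein, at 14.09 ± 0.10. The dimmest were Rps16 at 6.99 ± 0.06 and Rpl3l, the paralog of Rpl3 known from skeletal and heart muscle, at 7.77 ± 0.58. A probe set that names Rps16 together with a pseudogene and another copy read 14.07. Spread over the arrays was smaller for the members (median SD 0.14) than for all genes (0.19).

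In homozygous knockout cells no ribosomal protein gene passed the test against wild type, and the members leaned slightly to lower levels. Of the large subunit members 17 of 26 were lower in me and of the small subunit members 21 of 25, with a median difference of -0.04 (log2) in each, beside 49.8% of all genes lower and a median of 0.00. These counts depend on the scaling: without normalisation between arrays 26 of 26 and 25 of 25 were lower (medians -0.22 and -0.20), and with each array centred on its median 26 and 24 were (-0.20 and -0.18), while the median of all genes stayed between -0.02 and 0.00. In the quantile normalised fit with array set as a block 19 of 26 large and 18 of 25 small subunit members were lower. Leaving out WT 1, or leaving out WT 3, gave 17 of 26 and 17 of 25. Without WT 4 the counts were 20 of 26 and 20 of 25, and without WT 2 they were 14 of 26 and 18 of 25. Without WT 2 only 10 of 22 core large subunit genes were lower, with a median of 0.02. With limma and Benjamini-Hochberg adjustment 0 of 45037 probe sets passed, 0% of those tested, with 280 at an unadjusted p under 0.05. With array set as a block 3 passed (0.00666%), with 1934 at an unadjusted p under 0.05, and none of the 3 was a member. In these bulk samples fewer cells of a type and less RNA per cell cannot be told apart.

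Within set A the members' me minus WT median was -0.07 (36 of 51 lower, against 51.0% of all genes), and within set B, where me has a single array, it was -0.04 (39 of 51 lower, against 54.9%). With the block 6 members reached an unadjusted p under 0.05, and all 6 were lower in me: Rpl14, Rpl27, Rpl27a, Rpl37, Rpl7l1 and Rps15. Over all genes 5.05% did so, 2.95% with a lower and 2.1% with a higher level. Without the block 3 members did (Rpl14, Rpl7l1 and Rps15), beside 0.874% of all genes. The lowest adjusted p of any member, with limma and the block, was 0.835, for Rpl27a.

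**Figure D1:**
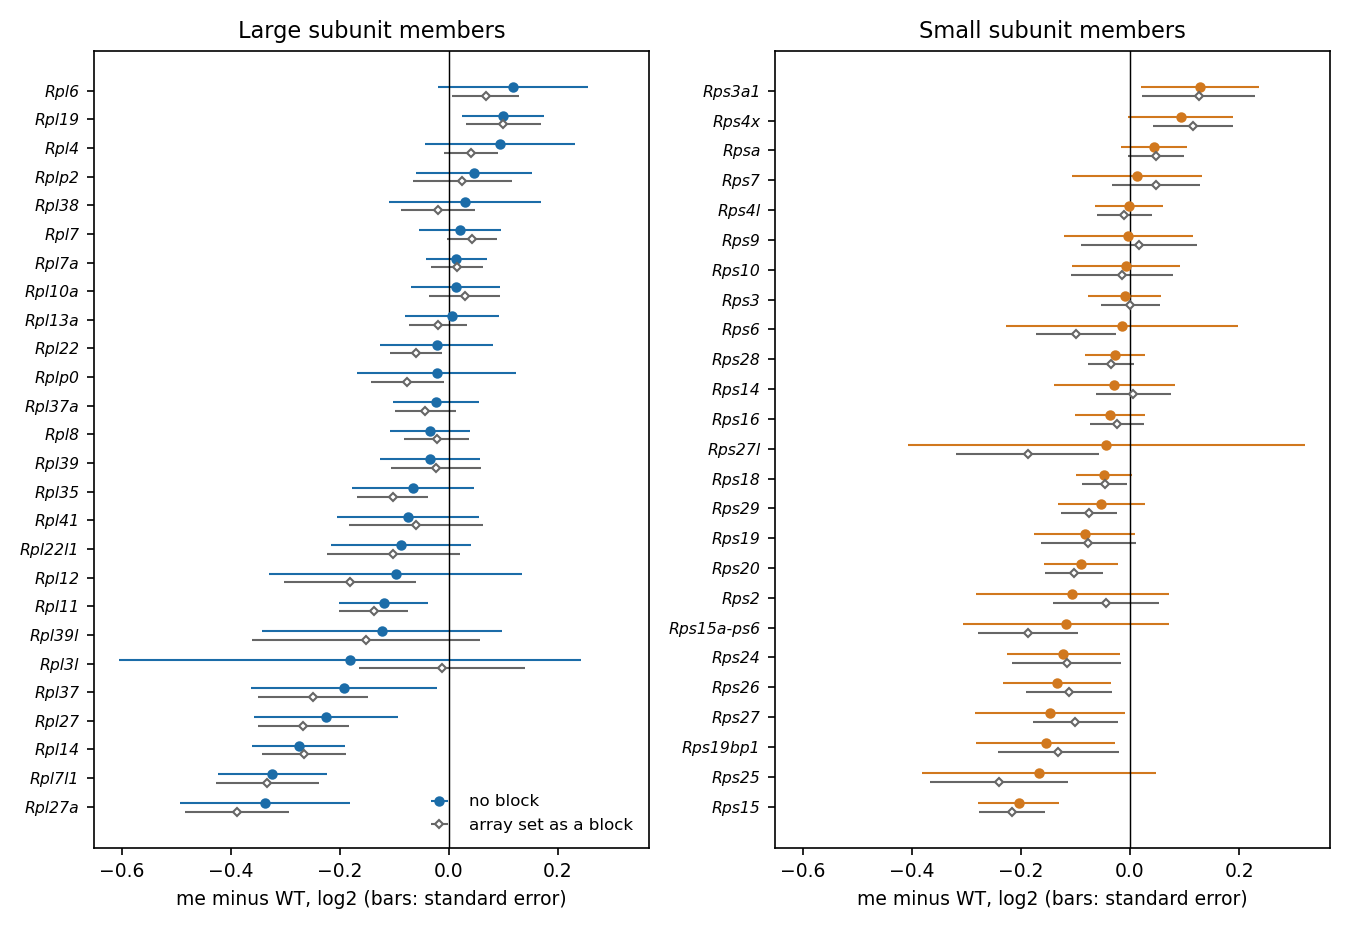
Differences of me from WT (x axis, log2) for the 26 large subunit members (left) and the 25 small subunit members (right), in order of their difference. Filled points are the fit without a block, open points the fit with the array sets as blocks, and bars are the standard error of the fit; Rpl27a, Rpl7l1 and Rpl14 lie lowest on the left and Rps15 on the right, and no member passed adjustment in either fit.

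Rpl14, a core protein of the large subunit, gave one of the clearest separations. Its log2 levels were 9.90, 10.08, 10.01 and 9.92 on the WT arrays, 9.64, 9.89 and 9.63 on the he arrays and 9.63, 9.77 and 9.71 on the me arrays. Every me and he array lay below every WT array, and he 2 came closest to the WT arrays. The me minus WT difference was -0.28 ± 0.08 (SE), a 1.21-fold lower level, and the limma adjusted p was 1. The gap was present within set A (-0.32) and within set B (-0.20). The probe set is the single one for Rpl14 alone, and 5 brighter probe sets that also name Rpl14-ps1 gave differences of -0.03, -0.07, -0.02, -0.03 and -0.01 at levels of 13.31, 13.02, 12.80, 12.68 and 10.63.

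Rpl7l1, a paralog of Rpl7 with a nucleolar role in ribosome assembly, also separated the groups. It read 9.49, 9.89, 9.68 and 9.54 on the WT arrays, 9.36, 9.46 and 9.44 on the he arrays and 9.38, 9.22 and 9.38 on the me arrays. All arrays of both knockout groups were below the lowest WT array, and WT 2 stood highest. The me minus WT difference was -0.32 ± 0.10, a 1.25-fold lower level with a limma adjusted p of 1, and it was -0.31 within set A and -0.39 within set B. Its dimmer probe sets gave -0.16 and -0.04.

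Rpl27a, a large subunit protein, had the most negative me minus WT difference of any member over all arrays. Without me 2 it was -0.21, while Rpl14 was -0.31 and Rpl3l -0.47. Its levels were 10.32, 10.54, 10.18 and 9.92 on the WT arrays, 10.20, 10.19 and 9.95 on the he arrays and 10.01, 9.66 and 10.04 on the me arrays. The me arrays of set A lay below the WT arrays of set A, and me 2 below both WT arrays of set B, but across the sets WT 4 fell among the me arrays. The me minus WT difference was -0.34 ± 0.16 without the block and -0.39 ± 0.10 with it (limma adjusted p of 1 and 0.835). A second probe set for Rpl27a, at 7.58, differed by 0.00, and a brighter one shared with predicted genes differed by -0.12.

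Rps15, a protein of the small subunit's head, was the small subunit member whose groups did not overlap. It read 12.08, 12.30, 12.04 and 12.13 on the WT arrays, 12.09, 11.98 and 11.996 on the he arrays and 11.93, 11.93 and 11.95 on the me arrays. The me arrays were the lowest and lay close together, the he arrays overlapped WT, and WT 2 was the highest. The difference was -0.20 ± 0.07, a 1.15-fold lower level with a limma adjusted p of 1, and a second probe set gave -0.15. Together 3 members (Rpl14, Rpl7l1 and Rps15) were lower on every me array than on every WT array and none was higher, beside 0.803% of all genes lower and 0.813% higher in that way.

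**Figure D2:**
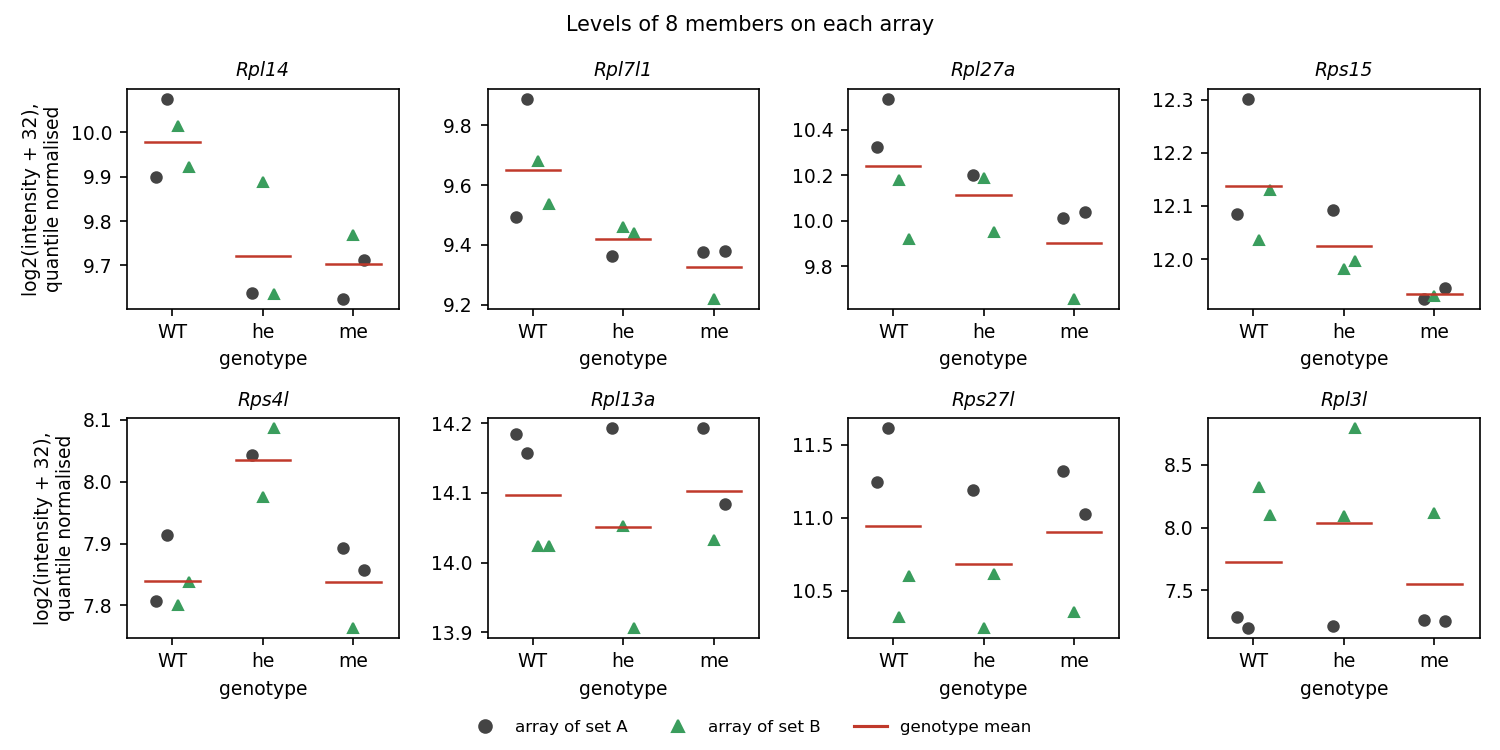
Levels of 8 members (y axes, log2 of intensity + 32, quantile normalised) on each array, by genotype. Circles are arrays of set A, triangles arrays of set B and lines genotype means; Rpl14 and Rpl7l1 lie lower in he and me than in WT, Rps15 lower in me, and Rps4l higher in he, while Rpl13a, Rps27l and Rpl3l separate by set.

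Rpl27 and Rpl37, both large subunit proteins, were among the 6 members named with the block. Rpl27 read 12.51, 12.67, 12.32 and 12.18 on the WT arrays, 12.50, 12.33 and 12.09 on the he arrays and 12.27, 12.14 and 12.17 on the me arrays. Its difference was -0.22 ± 0.13, or -0.27 ± 0.08 with the block (limma adjusted p of 0.989), and its other probe sets gave -0.23 and -0.15. Rpl37 read 8.98, 9.29, 8.82 and 8.71 on the WT arrays, 8.89, 8.82 and 8.46 on the he arrays and 8.85, 8.49 and 8.93 on the me arrays, a difference of -0.19 ± 0.17 that was -0.25 ± 0.10 with the block. The me and WT ranges of both genes overlapped, and a brighter probe set that Rpl37 shares with Rpl37rt gave -0.17.

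The remaining small subunit members with the smallest p were Rps26 and Rps20. Rps26, which lies where the mRNA leaves the small subunit, ranged from 12.30 to 12.47 in WT, 12.18 to 12.48 in he and 12.09 to 12.40 in me, a me minus WT difference of -0.13 ± 0.10. Rps20, a protein of the small subunit's head, ranged from 13.84 to 13.97 in WT, 13.80 to 13.99 in he and 13.81 to 13.84 in me, a difference of -0.09 ± 0.07. Both overlapped WT, and the limma adjusted p was 1 for each.

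Members with known roles outside the bulk of the ribosome were followed by name. Rplp0 and Rplp2, proteins of the stalk that recruits elongation factors, differed between me and WT by -0.02 ± 0.15 and 0.05 ± 0.11. Rplp2 turned to -0.10 without normalisation and -0.08 with median centring. Rpl11, which can bind the p53 regulator Mdm2 when ribosome assembly is disturbed, differed by -0.12 ± 0.08. Its me arrays read 11.62, 11.63 and 11.64, within the WT range of 11.58 to 11.86.

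Rpl22, which is needed for the development of alpha beta T cells, differed by -0.02 ± 0.10, and its paralog Rpl22l1 by -0.09 ± 0.13. Rpl22 read 13.50, 13.50, 13.23 and 13.28 on the WT arrays, 13.45, 13.25 and 13.27 on the he arrays and 13.50, 13.20 and 13.36 on the me arrays. Its high and low arrays followed the array sets, and the genotypes overlapped. Rpl22l1 ranged from 10.81 to 11.10 in WT, 10.61 to 11.10 in he and 10.81 to 10.87 in me. The 6 paralogs had a median me minus WT difference of -0.11, from -0.32 (Rpl7l1) to 0.00 ± 0.06 (Rps4l). The median was -0.02 without WT 1, and 4 of the 6 were lower without WT 2, without me 2 and within set A. Rpl39, at the exit tunnel of the large subunit, differed by -0.04 ± 0.09 and its testis paralog Rpl39l by -0.12 ± 0.22.

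Rps6, the subunit that S6 kinase phosphorylates, read 9.43, 9.25, 8.79 and 9.02 on the WT arrays, 9.42, 8.78 and 8.83 on the he arrays and 9.29, 8.78 and 9.25 on the me arrays. The high arrays were those of set A and the low ones those of set B, in every genotype, and the me minus WT difference was -0.01 ± 0.21 (limma adjusted p of 1). The brightest probe set that names Rps6 together with Rps6-ps4, at 14.48, differed by -0.02. Those at levels of 13.50 to 14.02 differed by -0.02, -0.10 and -0.09. Those at 9.84 to 11.28 differed by -0.31, -0.25, -0.21 and -0.24, and the dimmest, at 7.63, by 0.06. Rps19, whose loss of 1 copy causes Diamond-Blackfan anaemia, differed by -0.08 ± 0.09 and Rps27 by -0.15 ± 0.14. Rps27l, a paralog of Rps27 known as a p53 target, differed by -0.04 ± 0.36. Its arrays split by array set, with the values given below.

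After quantile normalisation the lower levels in me were found mainly among the dimmer members. At or above a log2 level of 13, 9 of 20 members were lower in me, with a median difference of 0.01. From 11 to 13, 11 of 13 were lower (median -0.08), and under 11, 18 of 18 (median -0.12). Over all genes in the same classes 38.3%, 42.8% and 50.1% were lower, with medians of 0.02, 0.02 and 0.00. The bounds were chosen after the values were seen. The contrast between the classes depends on the scaling: without normalisation and with median centring 20 of 20 members at or above 13 were lower (medians -0.24 and -0.22), as were 59 of all 60 genes in that class. Within set B 14 of the 20 were lower (median -0.03), and within set A 9 (0.03). Across the 51 members the correlation of level and difference was r = 0.52, a description over genes measured on the same arrays.

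The count under 11 moved with single arrays. It was 14 of 18 without WT 1 or WT 2, 15 without WT 3 or me 2, 16 without me 1 and 17 without me 3. Within set A it was 14 of 18 and within set B 17 of 18. Its median lay between -0.06 (without me 2) and -0.15 (without WT 4). Probe set design moved with level: 17 members had a plain probe set, with 15 lower in me (median -0.12), and 34 had one marked as able to read several transcripts, with 23 lower (-0.03).

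**Figure D3:**
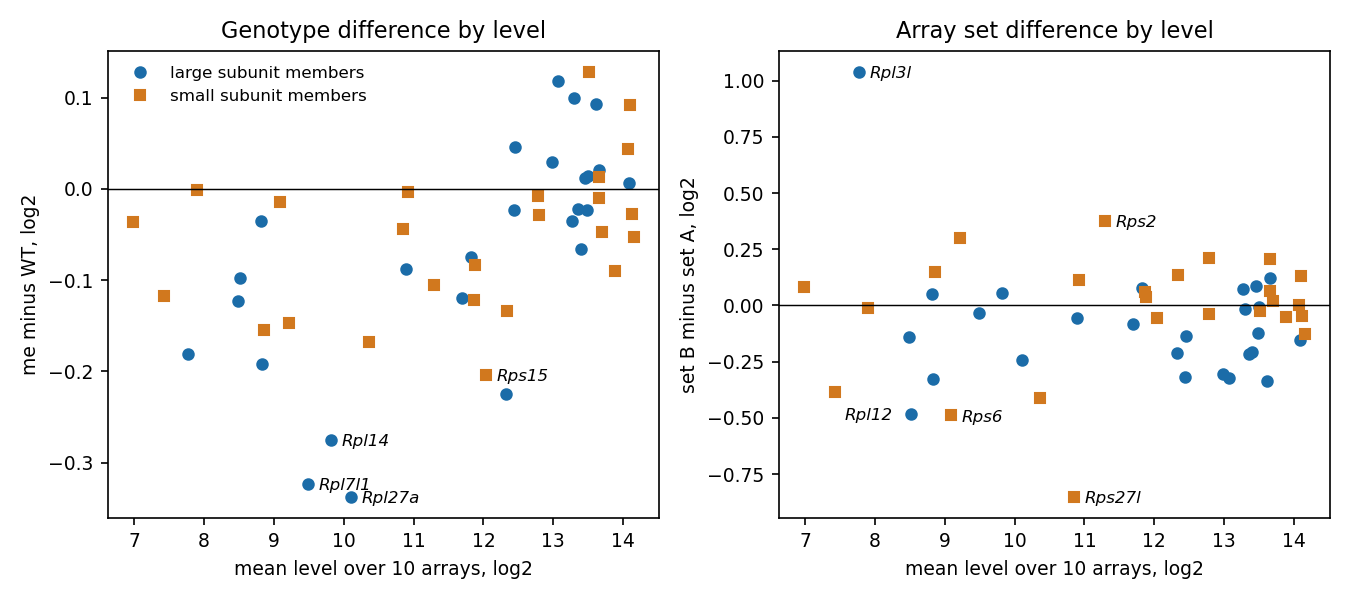
Mean level over the 10 arrays (x axes, log2) against the me minus WT difference (left, log2) and the set B minus set A difference (right, log2) for each of the 51 members. Circles are large and squares small subunit members; on the left the members under a level of 11 all lie below 0, and on the right Rpl3l at 1.04 and Rps27l at -0.85 lie farthest out, with no trend by level (r = -0.02).

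Counted singly, the probe sets of these genes also had medians below 0. All 107 single-gene probe sets of the members had a median me minus WT difference of -0.05, with 85 lower. The 110 probe sets that name a ribosomal protein symbol together with other genes had a median of -0.03, with 80 lower, at levels from 7.09 to 14.89. Of the 24 members with several probe sets, 13 had the same sign on all of them.

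In heterozygous cells most large subunit members had a lower mean than in wild type, again with no member past the test. Of the large subunit members 22 of 26 were lower in he (median -0.07) and of the small subunit members 12 of 25 (median 0.01), beside 53.1% of all genes. Among core large subunit genes 21 of 22 were lower, and 22 of 22 with the block. That count was 15 of 22 without he 3 and 17 without he 1, and 17 within each array set. Without normalisation between arrays the subunits no longer differed in this way: 25 of 26 large and 23 of 25 small subunit members were lower, with medians of -0.29 and -0.23, and the same counts were found with median centring. Other bright genes were lower in he as well without normalisation. Of all genes at or above a log2 level of 13, 60 of 60 were lower (median -0.27), and from 11 to 13, 563 of 596 (-0.25). The small subunit median turned to -0.02 with the set block (14 of 25 lower) and within set B (17 of 25), and to -0.03 without WT 2 or without he 2 (17 of 25 each). The large subunit medians there were -0.04, -0.03, -0.03 and -0.07, and the difference between the subunits was not tested.

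For he against WT limma called 0 of 45037 probe sets (0%), with 134 at an unadjusted p under 0.05, and 0 with the block, with 961. Rpl14 (-0.26 ± 0.08) and Rpl7l1 (-0.23 ± 0.10) were the members lower on every he array than on every WT array, beside 0.583% of all genes. With the block Rpl14 and Rpl7l1, lower in he, and Rps4l, higher in he, had an unadjusted p under 0.05, beside 2.29% of all genes (1.69% lower, 0.599% higher), and the same 3 had one without it (0.335% of genes). These values use the same WT arrays as the me comparison, so they are not a second observation of WT. Rps15 differed by -0.11 ± 0.07 and Rpsa, a protein needed for maturation of the small subunit and also described as a laminin receptor, by -0.06 ± 0.06. The limma adjusted p was 1 for all of these.

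One member stood higher in he than in both other groups. Rps4l, a paralog of Rps4x, read 7.81, 7.91, 7.80 and 7.84 on the WT arrays, 8.04, 7.98 and 8.09 on the he arrays and 7.89, 7.76 and 7.86 on the me arrays. All 3 he arrays were above all WT and me arrays. The he minus WT difference was 0.20 ± 0.06 and the me minus he difference -0.20 ± 0.07, each with a limma adjusted p of 1. Rps4l lies close to the median level of all genes and was singled out after its values were seen. Its separation from WT is beside 0.308% of genes higher in he without overlap, and the he arrays are all of the Xist-high kind, a difference whose part in the result was not tested.

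Between homozygous and heterozygous cells the medians of both subunits lay close to 0. Of the large subunit members 9 of 26 were lower in me (median 0.03) and of the small subunit members 16 of 25 (median -0.04), beside 46.4% of all genes and a median of 0.01. With median centring the small subunit count turned to 9 of 25 lower and its median to 0.03, and the large subunit count to 3 of 26 (median 0.09, with all genes at 0.05). Without normalisation the counts were 5 of 26 and 14 of 25, and with the set block the medians were 0.00 and -0.04. The large subunit median was -0.01 without he 3 (14 of 26 lower) and 0.00 without me 3 (13 of 26). Limma called 0 probe sets without the block (0%; 301 at an unadjusted p under 0.05) and 0 with it (1447). The limma F test over the 3 genotypes called 0 as well, without the block (0%; 199 at an unadjusted p under 0.05) and with it (1287).

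Rpsa read 13.97, 14.01 and 14.05 in he and 14.08, 14.08 and 14.19 in me, and was the single member higher on every me array than on every he array, beside 1.58% of all genes. Its difference was 0.10 ± 0.06, and its WT arrays, at 14.01, 14.08, 14.07 and 14.14, spanned both groups. Lower on every me array than on every he array were Rps15, Rps18 and Rps4l, beside 0.912% of genes. Rps18, a protein of the small subunit's head, gave -0.06 ± 0.06 and Rps15 -0.09 ± 0.08. Among large subunit members the smallest p fell to Rpl19 (0.11 ± 0.08) and Rpl27a (-0.21 ± 0.17), with me and he overlapping in both. With the block Rpl27a and Rps4l, both lower in me, had an unadjusted p under 0.05, beside 3.53% of all genes (1.35% lower, 2.18% higher), and without it Rps4l had one (0.841% of genes).

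The array sets moved the large subunit members more than the genotypes did. In set B the large subunit members had a median difference from set A of -0.13, with 19 of 26 lower, and the small subunit members a median of 0.02, with 11 of 25 lower, beside -0.05 and 55.2% for all genes. Without normalisation between arrays both were lower, at -0.67 and -0.56 with all genes at 0.01, and with median centring at -0.91 and -0.80 with all genes at -0.23. Relative to all genes the median of the large subunit members was thus lower in set B under each scaling, and that of the small subunit members was above all genes after quantile normalisation and below them in the others. Most genes are dimmer than the members, and bright genes in general were lower in set B after quantile normalisation. From log2 11 to 13 the median of all genes was -0.14 (69.5% lower), and at or above 13 it was -0.10 (70% lower). The large subunit members thus lay close to other genes of their level.

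Of the large subunit members 9 were lower on every array of set B than on every array of set A and 2 were higher. Of the small subunit members 3 were lower and 4 higher in that way, and over all genes 29.6% were lower and 24.6% higher. Rps27l read 11.24 and 11.61 (WT), 11.19 (he) and 11.32 and 11.03 (me) in set A, and 10.33 and 10.60 (WT), 10.25 and 10.61 (he) and 10.36 (me) in set B. The sets did not overlap, and the difference of -0.85 for Rps27l was the most negative of any member. Rpl3l differed by 1.04, at 7.20 to 7.29 in set A and 8.09 to 8.79 in set B.

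Rpl12, at the base of the stalk, was 8.58 to 8.94 in set A and 7.95 to 8.44 in set B, a difference of -0.48. Rpl4, whose extension lines the exit tunnel, was 13.71 to 13.86 and 13.36 to 13.50 (-0.33). Rps6 differed by -0.49, Rplp0 by -0.32, Rps2 by 0.38 and Rps27 by 0.30, and in each the sets did not overlap. Other probe sets of some of these genes read otherwise. Brighter ones shared with other genes gave 0.18 and 0.34 for Rpl12, -0.10 and 0.01 for Rps2, and -0.01 for Rps27. A dimmer single-gene probe set for Rps6 gave 0.74, and those shared with Rps6-ps4 ran from -0.42 to 0.07. Rpl7, at 13.56 to 13.65 in set A and 13.67 to 13.78 in set B, was the core large subunit member with the largest difference to a higher level in set B (0.12).

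The members together took 2.37, 2.52, 1.92 and 1.78% of the summed deposited intensity on the WT arrays, 2.33, 1.85 and 1.58% on the he arrays and 2.13, 1.60 and 1.95% on the me arrays. Arrays of set A (1.95 to 2.52%) lay above those of set B (1.58 to 1.92%), and the genotypes overlapped. The mean log2 level of the large minus that of the small subunit members was 0.10, 0.14, 0.07 and 0.00 on the WT arrays, 0.05, 0.03 and 0.01 on the he arrays and 0.06, 0.02 and 0.10 on the me arrays. With core genes alone the large minus small difference was 0.03, 0.13, 0.00, 0.03 and 0.05 on the arrays of set A and -0.09, -0.10, -0.11, -0.14 and -0.11 on those of set B. The balance of the core subunits therefore differed by array set without overlap. Within each set every he array lay below the WT arrays of that set, and in set B me 2 did as well. In set A me 1 (0.0329) lay just below WT 1 (0.0334) and WT 2, and me 3 lay between WT 1 and WT 2. These differences within the sets were not tested.

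**Figure D4:**
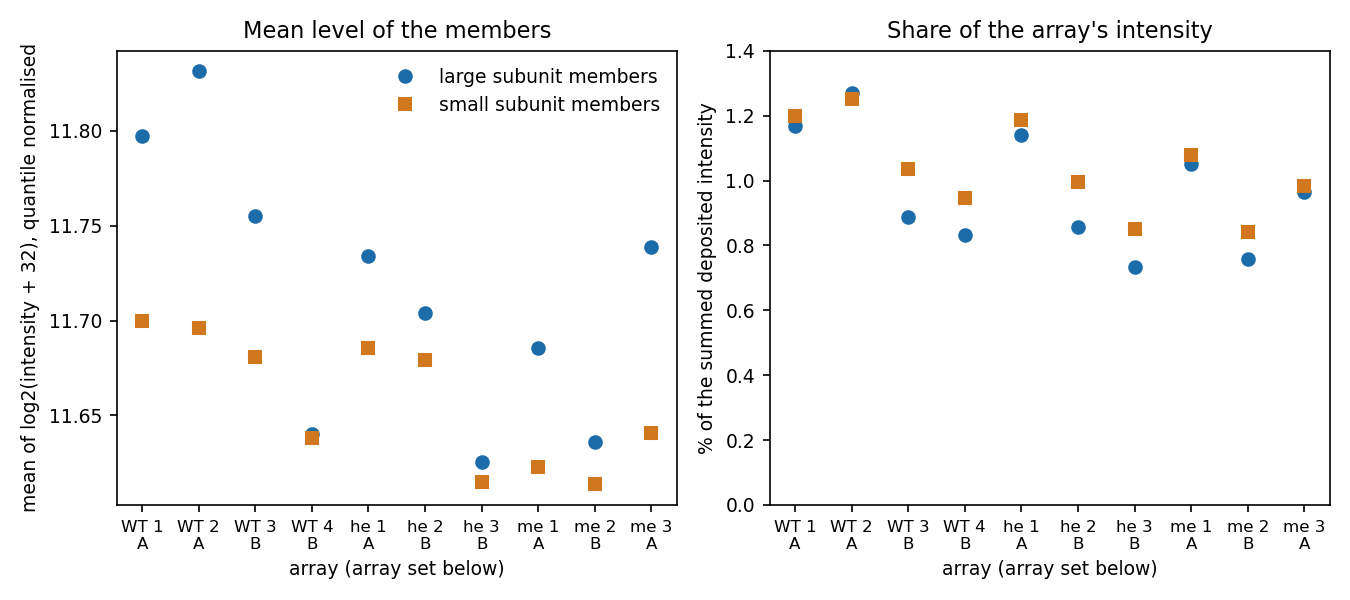
Mean level of the large (circles) and small (squares) subunit members on each array after quantile normalisation (left, log2) and their share of the summed deposited intensity (right, percent). Each column is 1 array with its array set below; the shares run from 0.73 to 1.27% for the large and 0.84 to 1.25% for the small subunit members, and both are highest on WT 1, WT 2 and he 1 of set A.

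The other genes of ribosome production and its control gave no call in any comparison. Of 24 genes for ribosome assembly and the nucleolus 23 were lower in me than in WT (median -0.12), beside 49.8% of all genes. Without me 2 the count was 17 of 24 (median -0.04). Dkc1, the pseudouridine synthase dyskerin, had the smallest p, at -0.35 ± 0.08 (limma adjusted p of 1, or 0.45 with the block), followed by the nucleolar protein gene Nop58 at -0.28 ± 0.11. Against this, 9 of 17 translation factor and other TOP genes were lower (median -0.02), with the nucleolar chaperone gene Npm1 at -0.22 ± 0.08, and 13 of 18 genes of mTORC1, S6 kinase and initiation control were lower (median -0.03). In he 21 of the 24 assembly and nucleolus genes were lower than on the same WT arrays (median -0.12), beside 53.1% of all genes. With the block the count in he was 24 of 24 (median -0.11).

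The 76 mitochondrial ribosomal protein genes, which serve the separate ribosome of the mitochondrion, were mostly lower in he and in set B. In he 67 of 76 were lower than in WT (median -0.11), beside 53.1% of all genes. In set B 65 of 76 were lower than in set A (median -0.32), beside 55.2%. In me 47 of 76 were lower than in WT (median -0.02), beside 49.8%, and this turned without me 2 (18 of 76, median 0.08), without WT 2 (24 of 76, 0.05) and without WT 1 (37 of 76, 0.01). The contrast between he and me was not kept once the block was used. Against WT, 64 of 76 were then lower in he and 59 of 76 in me, each with a median of -0.07. Between me and he 38 of these 76 genes were lower in me with the block (median 0.00). Their promoters held a pyrimidine run at the start in 44% of cases, against 57.7% for the cytosolic members.

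The Gapdh ratio separated the me arrays from the others, and most of the markers of other cells listed here had a higher mean in me than in WT. The Gapdh 3′ to 5′ intensity ratio, which rises as RNA is degraded or amplified from its 3′ end, was 10.9, 9.92 and 13.8 in me and 7.84 to 9.71 in WT and he, while the actin ratio of me (12.1 to 13.9) lay within the WT and he range of 11.99 to 17.7. Among markers of other cells 6 of 7 neutrophil genes were higher in me than in WT (summed intensity 981 to 1877 against 961 to 1418), as were 6 of 6 macrophage and monocyte genes (929 to 1589 against 822 to 1223). Of the B cell markers 5 of 6 were higher (1244 to 1507 against 1059 to 1361), of the plasma cell markers 5 of 6 (2923 to 5599 against 2698 to 5075) and of the CD8 and NK cell markers 5 of 8 (2625 to 7410 against 2671 to 6347). With array set as a block 3 of 6 plasma cell markers were higher in me. The counts with the block were 6 of 7 (neutrophil), 5 of 6 (macrophage and monocyte), 6 of 6 (B cell) and 6 of 8 (CD8 and NK cell). No marker was at 0 on these arrays, the summed ranges of me and WT overlapped for each list, and the part of these measures in the members' differences was not tested.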

How the data were processed

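RNA of CD4+CD25+ lymph node cells was measured on 10 Affymetrix arrays (WT 4, he 3, me 3), amplified from 20 ng of total RNA, with 10 ug of the amplified RNA labelled, per the labels' protocols. The deposited values are linear intensity for each probe set on each array. How the authors summarised, background corrected or scaled them is not given in the sources used here. The median intensity of an array lay between 148 and 188. The number of arrays limits the precision.

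From 45101 probe sets 64 controls were left out after normalisation. Of 45037 tested, the platform annotation names 1 gene for 34945, several for 932 and none for 9160. Values were taken as log2(intensity + 32), quantile normalised and fitted on all 10 arrays with limma 3.58.1 (R 4.3.3; lmFit, eBayes), Benjamini-Hochberg adjusted over all tested probe sets at 0.05. A low-value filter was an alternative only, so every member was tested. Differences are log2 with the fit's standard error, and folds are on this scale. Lists have counts and medians and no test. The fit was tested on simulated data.

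Members, related lists, markers and named genes were chosen with earlier results of these data known. The rule names members with known separate roles by symbol, where measured, per subunit the members with the smallest p (3 for me against WT, 2 for each other comparison) at or above the median level, the highest and lowest level, and the 2 largest set differences each way; and 2 genes per related list. Of the other marker lists, T cell genes were higher in me for 3 of 5, Treg genes for 5 of 6 and erythroid genes for 1 of 3. Array sets are 2 clusters by average linkage on 1 minus r over probe sets of no member. Replicate numbers were checked and do not pair the arrays.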

Additional observations from a re-analysis of the deposited data

How the results depend on the processing

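Over 40 results and 807 alternatives 749 kept their direction, their side of the threshold or their value within the spread, 33 turned sign, 21 moved and 4 gained calls; none of 588 values of named members passed (lowest limma adjusted p 0.654). Medians of large subunit members without normalisation and with median centring were -0.22 and -0.20 (me against WT), -0.29 and -0.31 (he against WT), and -0.67 and -0.91 (set B against A); those of small subunit members were -0.20 and -0.18, -0.23 and -0.25, and -0.56 and -0.80, and with centring 0.027 for me against he. In the same order Rplp2 gave -0.10 and -0.078, Rpsa -0.23 and -0.21 and Rpl13a -0.31 and -0.29 (me against WT). With plain probe sets alone the medians were -0.12 (large) and -0.077 (small) for me against WT and -0.064 (small) for he against WT. With the mean of all probe sets Rpl13a gave -0.061. The array set block called 3 probe sets for me against WT and gave -0.019 for Rpl13a. With me 3 counted in set B, an alternative chosen after seeing the data, the block gave Rplp0 0.021, Rps6 0.059, Rps27l 0.091 and Rpl22 0.014. Where not stated otherwise the cause was not tested.

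Leaving out 1 array gave 0 to 2 called probe sets for me against WT, me against he and the F test, with 2 without me 2, and 0 to 0 for he against WT. Medians of small subunit members ran from -0.028 to 0.017 (he against WT) and -0.071 to -0.0075 (me against he), and those of large subunit members from -0.011 to 0.069 (me against he). For me against WT single members ran from -0.038 to 0.042 (Rpl13a), -0.096 to 0.053 (Rpl22), -0.11 to 0.042 (Rpl39), -0.47 to 0.018 (Rpl3l), -0.11 to 0.090 (Rplp0), -0.0021 to 0.13 (Rplp2), -0.25 to 0.23 (Rps27l) and -0.13 to 0.15 (Rps6).

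The replicate block, with the replicate numbers of the labels, called 0 probe sets in each comparison, as without it, and gave -0.0021 for Rplp2 and -0.018 for Rpl13a (me against WT). Arrays with the same number deviated together for number 1 (r of 0.90 to 0.94) but not for number 2 (-0.87 to 0.69) or number 3 (-0.51 to 0.73), so the numbers do not pair them. Signal near background limits members such as Rps16 and Rpl3l, whose changes are compressed by the pseudocount of 32, and 27 ribosomal protein symbols could not be read apart from other genes.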
